A study of Oryza sativa with 12 samples.

Results

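The genes described here are the TIFY genes of rice that encode jasmonate ZIM-domain (JAZ) repressors. They were chosen by symbol: 10 TIFY symbols were sought in the gene name column, and 9 had a row among 112071 features. TIFY11A had no row under that symbol, and its level was not analysed here. RNA came from whole 14-day-old seedlings of cultivar ZH11, grown on MS medium, in 12 libraries. The 4 groups of 3 libraries were pkg seedlings treated for 5 h with Br-cGMP at 10 µM, wild type seedlings given the same treatment, untreated pkg seedlings and untreated wild type seedlings. Br-cGMP is a brominated form of the second messenger cGMP. The pkg line is labelled PKG-/-, for the cGMP-dependent protein kinase PKG. The labels do not say how the allele was made, how many lines were used or whether seedlings were pooled, and the series calls the 3 libraries of a group biological repetitions. The design asks what Br-cGMP and the pkg genotype each change, and whether the response to Br-cGMP differs between genotypes.

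JAZ proteins hold jasmonate responses off in unstimulated tissue. They bind MYC-type transcription factors and, through the adaptor NINJA, recruit co-repressors of the TOPLESS family. The hormone conjugate jasmonoyl-isoleucine brings a JAZ protein to the F-box receptor COI1, after which the JAZ protein is ubiquitinated and degraded. JAZ genes are themselves among the genes that jasmonate and wounding induce, so their transcripts are widely used as readouts of the pathway, while the transcript level says nothing of how much protein is left after degradation.

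Values are FPKM, fragments per kilobase of feature scaled to library depth, so levels can be compared between genes. Differences are on the scale log2(FPKM + 1), with their standard error, from limma fitted to the 25238 features that reached 1 FPKM in 3 libraries or more. Adjusted p-values are Benjamini-Hochberg values over all these features, with a threshold of 0.05. Reads assigned to features, recovered from the FPKM values, numbered 6667261 to 9438909 per library. The locus OS02G0281000, taken here for PKG, lay at 3.68 to 9.29 FPKM in libraries labelled pkg and at 4.65 to 7.09 FPKM in wild type libraries, which does not check the genotype labels, as the altered part of the gene is not given. Root genes were nearly missing from 3 libraries, pkg Br-cGMP 3, pkg control 3 and WT control 3: the summed level of 5 root marker genes was 11.2 to 21.8 FPKM there and 1949 to 8461 FPKM in the other 9. Of 14 leaf markers sought, 4 had a row; CAB1R and CAB2R were listed at 0 in all libraries, and the sum of RBCS and GLO1 ran from 612 to 4848 FPKM. These are whole seedlings, in which fewer cells of a type and less RNA per cell cannot be told apart.

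Among the 9 genes with a row, TIFY10B (OS07G0615200, chromosome 7, 25348060 to 25350242) dominated. The sources used here do not name the genome build of this and the later positions. It held 53.3% to 67.0% of the summed FPKM of the 9 genes, with a median of 61.5% over the 12 libraries. TIFY6A followed with a median of 14.5% and TIFY6B with 8.91%. In level, TIFY10B averaged 741 FPKM, TIFY6A 164, TIFY6B 105, TIFY11B 55.6, TIFY11C 52.4, TIFY11D 50.9 and TIFY10C 47.2. TIFY10A averaged 0.694 FPKM, and TIFY9 (OS04G0395800, chromosome 4, 19492605 to 19497140) was listed at 0 in all 12 libraries, as were 15025 of 37830 reference genes. TIFY10B lay above TIFY6A in every library without overlap of their ranges, and TIFY6A above TIFY6B in every library although their ranges overlapped. The order among TIFY11B, TIFY11C, TIFY11D and TIFY10C was not stable: TIFY11B was above TIFY11C in 7 of 12 libraries, TIFY11C above TIFY11D in 6 of 12 and TIFY11D above TIFY10C in 9 of 12.

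**Figure D1:**
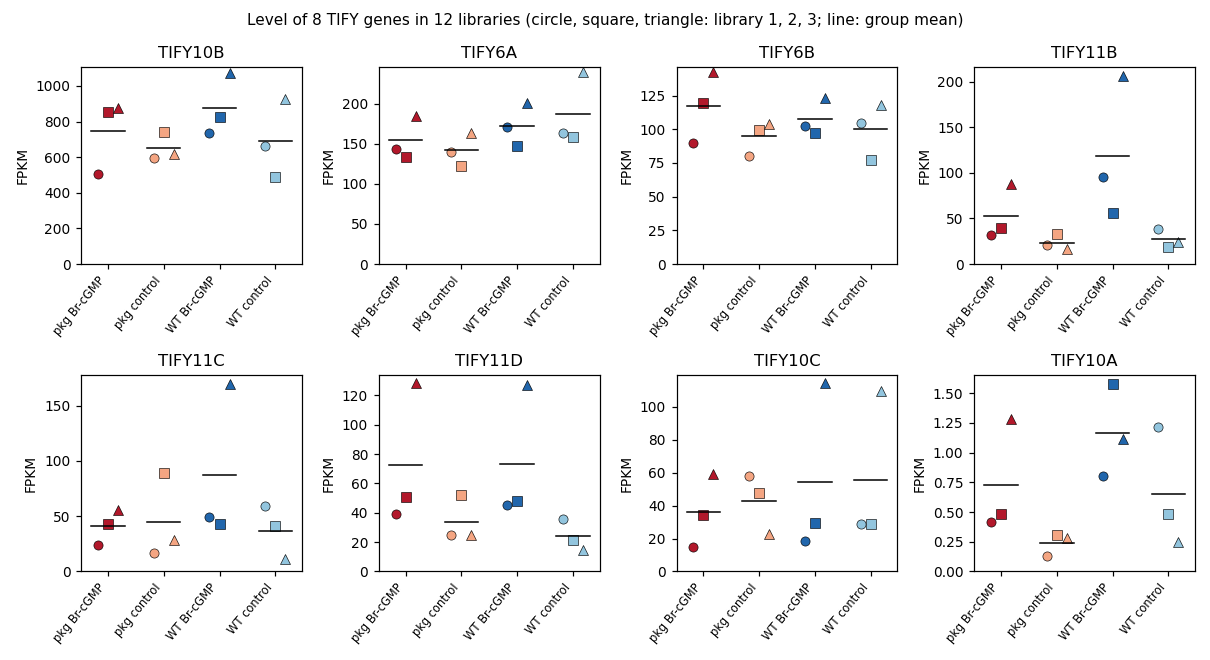
FPKM (vertical axes, from 0, each with its own scale) of the 8 TIFY genes that could be tested, with circles, squares and triangles for libraries 1, 2 and 3 of a group and a line at the group mean. TIFY10B stays between 487 and 1074 FPKM, while TIFY11B reaches 206 FPKM in WT Br-cGMP 3 against 18.7 to 38.2 FPKM in the WT control libraries.

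TIFY11B and TIFY11D had the largest Br-cGMP differences of the 8 tested members on the log2(FPKM + 1) scale, in pkg and in wild type, and neither passed the adjusted threshold. In pkg, the low TIFY10A was above both with a pseudocount of 0.1, at 1.19 beside 1.11 for TIFY11B and 1.00 for TIFY11D, and with limma-voom, at 1.36 beside 1.08 and 0.98. Without the 3 libraries low in root genes, the largest difference in pkg was a fall. TIFY10C then stood at -1.20, beside 0.44 for TIFY11B and 0.31 for TIFY11D. In the wild type response, 0 of 8 tested members were called at the adjusted threshold, where 0% of all 25238 features were called, and limma-voom on recovered reads also called 0. At an unadjusted p under 0.05 there were 2 members, TIFY11B and TIFY11D, where 5.33% of all features reached that level. The same 2 members had all wild type Br-cGMP libraries above all wild type control libraries, which held for 8.88% of all features tested. The reverse order held for 0 members, where 4.86% of all features were lower without overlap.

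TIFY11B (OS03G0181100, chromosome 3, 4248884 to 4249820) stood at 31.8, 40.1 and 87.7 FPKM in the pkg Br-cGMP libraries, against 20.8, 32.6 and 16.2 FPKM in the pkg control libraries. These groups overlapped, since pkg Br-cGMP 1 lay just under pkg control 2. The difference was 1.08 ± 0.52 (limma adjusted p = 1), or 0.66 without pkg Br-cGMP 3, the highest of the 6 pkg libraries. Without the 3 libraries low in root genes, which include it and leave pkg groups of 2, the difference was 0.44. In wild type seedlings TIFY11B stood at 95.1, 55.5 and 206 FPKM with Br-cGMP, against 38.2, 18.7 and 24.5 FPKM in control libraries. Here the groups did not overlap, and WT Br-cGMP 3 was the highest of all 12 libraries, at 2.17 times the next. The wild type means were 119 ± 78.2 FPKM with Br-cGMP and 27.1 ± 10.0 FPKM in control (SD, n = 3 each). The difference was 1.95 ± 0.52 (limma adjusted p = 0.882). It was 1.45 without WT Br-cGMP 3 and 1.41 without the 4 libraries numbered 3.

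TIFY11D (OS10G0392400, chromosome 10, 13069770 to 13070894) stood at 39.5, 50.8 and 128 FPKM in the pkg Br-cGMP libraries, against 24.8, 52.2 and 24.6 FPKM in the pkg control libraries. These groups overlapped because pkg control 2 was above both pkg Br-cGMP 1 and pkg Br-cGMP 2. The difference was 0.98 ± 0.55 (limma adjusted p = 1), 0.48 without pkg Br-cGMP 3 and 0.31 without the 3 libraries low in root genes. In wild type seedlings it stood at 45.0, 47.9 and 127 FPKM with Br-cGMP, against 36.1, 21.3 and 14.3 FPKM in control libraries. All treated wild type libraries were above all wild type controls, and WT control 3, one of the libraries low in root genes, was the lowest of the 12. The difference was 1.50 ± 0.55 (limma adjusted p = 0.882), and 0.72 without the 4 libraries numbered 3.

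TIFY11C (OS03G0180900, chromosome 3, 4236724 to 4238058) lies on the same strand as TIFY11B, with a gap of 10825 bases and no reference gene between them. Its levels were 24.0, 43.1 and 55.2 FPKM in the pkg Br-cGMP libraries, against 16.4, 88.9 and 28.8 FPKM in the pkg control libraries. The pkg groups overlapped, and pkg control 2 was the highest of these 6. The difference was 0.14 ± 0.77 (limma adjusted p = 1), and its sign turned with single libraries. Wild type seedlings had TIFY11C at 49.0, 43.0 and 169.8 FPKM with Br-cGMP, against 59.0, 40.8 and 10.9 FPKM in control libraries. WT Br-cGMP 3 and WT control 3 were the extremes of all 12 libraries, and the other 4 wild type libraries overlapped. The difference of 1.22 ± 0.77 (limma adjusted p = 0.884) rested on those libraries: it was 0.60 without WT Br-cGMP 3, 0.53 without the 3 libraries low in root genes and -0.094 without all 4 libraries numbered 3. The wild type groups thus overlapped for TIFY11C and not for its chromosomal neighbour TIFY11B, and no test compared these genes with each other. Reads shared between such related genes could be divided between them by the authors' counting, which is not described in the sources used here.

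TIFY10B, the most abundant member, stood at 503, 855 and 879 FPKM in the pkg Br-cGMP libraries, against 596, 739 and 615 FPKM in the pkg control libraries. In wild type seedlings it stood at 734, 825 and 1074 FPKM with Br-cGMP, against 663, 487 and 928 FPKM in control libraries. Groups overlapped in both genotypes. The differences were 0.16 ± 0.29 in pkg (limma adjusted p = 1), or -0.017 without the 3 libraries low in root genes, and 0.37 ± 0.29 in wild type (limma adjusted p = 0.889). Single libraries moved both: the pkg difference was 0.019 without pkg Br-cGMP 3 and 0.42 without pkg Br-cGMP 1, and the wild type difference was 0.14 without WT control 2 and 0.61 without WT control 3.

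TIFY10C (OS09G0439200, chromosome 9, 16273522 to 16275268) varied widely between the libraries of a group, and its treated and control groups overlapped in both genotypes. Its levels were 14.6, 34.1 and 59.4 FPKM in the pkg Br-cGMP libraries, against 58.1, 47.9 and 22.8 FPKM in the pkg control libraries. In wild type seedlings it stood at 18.6, 29.4 and 114 FPKM with Br-cGMP, against 29.0, 29.1 and 109.5 FPKM in control libraries. Library 3 was by far the highest of both wild type groups. The differences were -0.35 ± 0.76 in pkg (limma adjusted p = 1) and -0.18 ± 0.76 in wild type (limma adjusted p = 0.985). In wild type, leaving out WT Br-cGMP 3 gave -0.93 and leaving out WT control 3 gave 0.45.

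TIFY6A (OS08G0428400, chromosome 8, 20624908 to 20627940) and TIFY6B (OS09G0401300, chromosome 9, 14056118 to 14060316) had the smallest standard errors of the 8 tested members. TIFY6A stood at 143, 134 and 185 FPKM in the pkg Br-cGMP libraries, against 140.2, 122 and 164 FPKM in the pkg control libraries. The wild type levels of TIFY6A stood at 171, 147 and 200.4 FPKM with Br-cGMP, against 163, 159 and 239.6 FPKM in control libraries. Treated and control groups overlapped for TIFY6A in both genotypes. TIFY6B stood at 90.0, 119 and 143 FPKM in the pkg Br-cGMP libraries, against 80.4, 99.7 and 104 FPKM in the pkg control libraries. The wild type levels of TIFY6B stood at 102, 97.0 and 123 FPKM with Br-cGMP, against 105, 77.0 and 118 FPKM in control libraries. Its groups overlapped in both genotypes too, and the differences of the 2 genes ran from -0.10 ± 0.22 (TIFY6A in wild type, limma adjusted p = 0.965) to 0.29 ± 0.22 (TIFY6B in pkg, limma adjusted p = 1). The library numbered 3 was the highest of its group for both genes in all 4 groups. Over all features tested, 1.63% had that order in all 4 groups. The libraries numbered 3 include the 3 libraries low in root genes, and the part of tissue composition in this order was not tested. A short feature on the opposite strand overlaps TIFY6B, at a mean of 8.66 FPKM; whether counting used strand is not given in the sources used here.

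TIFY10A (OS03G0402800, chromosome 3, 16407695 to 16410007) was near the detection limit, with 2 to 21 recovered reads per library. It stood at 0.415, 0.480 and 1.28 FPKM in the pkg Br-cGMP libraries, against 0.128, 0.306 and 0.278 FPKM in the pkg control libraries. In wild type seedlings it stood at 0.801, 1.58 and 1.11 FPKM with Br-cGMP, against 1.22, 0.483 and 0.245 FPKM in control libraries. It was the only member whose pkg groups did not overlap, where 2.71% of all features were higher without overlap in pkg Br-cGMP. Lower without overlap were 0 members, and 2.41% of all features. It passed the level filter through 4 libraries, of which 3 were Br-cGMP libraries, so that a separation between treatments was partly set by the filter. The difference was 0.45 ± 0.31 in pkg (adjusted p = 1) and 0.42 ± 0.31 in wild type (adjusted p = 0.889). The pseudocount shrinks differences at this level: with a pseudocount of 0.1 they were 1.19 in pkg and 0.93 in wild type.

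**Figure D2:**
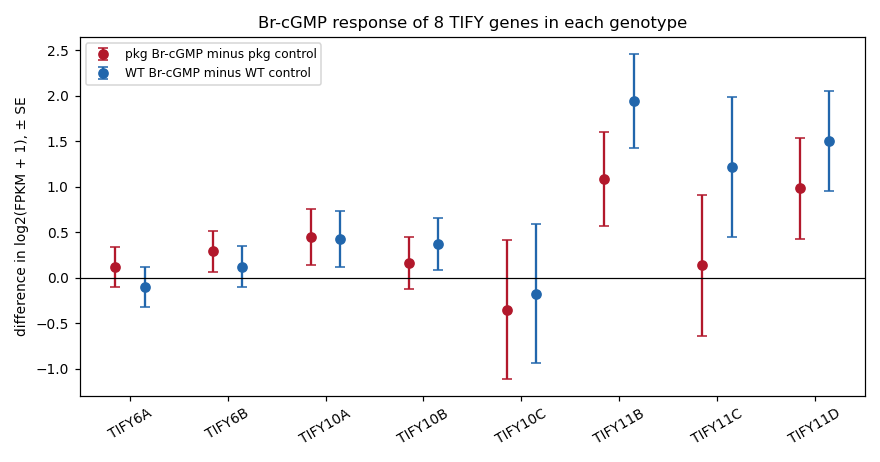
Differences in log2(FPKM + 1) between Br-cGMP and control libraries (vertical axis, ± SE) for 8 TIFY genes, in pkg (red, left) and in wild type (blue, right). TIFY11B (1.08 in pkg, 1.95 in wild type) and TIFY11D (0.98 in pkg, 1.50 in wild type) are highest on this scale, and none of the 8 genes passed the adjusted threshold in either genotype.

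Of the 8 tested members, 7 were above control in pkg and 6 in wild type, with a median difference of 0.22 in pkg and 0.40 in wild type. The median over all tested features was -0.01 in each genotype, with 48.3% of features above control in pkg and 48.6% in wild type. In pkg, 0 members were called and 0% of all features were, limma-voom also calling 0. At an unadjusted p under 0.05 there were 0 members, where 2.71% of all features reached that level. Deviations of same-numbered pkg libraries went together (r from 0.31 to 0.36), and the pkg libraries were also read in pairs, although no pairing is labelled. Both pkg libraries numbered 3 were low in root genes. Deviations of pkg control 3 and WT control 3, of different genotypes, went together more closely (r = 0.41). The part of tissue composition in these r values was not tested. Br-cGMP was above control in all 3 pairs for 4 of the 8 members (TIFY6A, TIFY6B, TIFY10A and TIFY11B) and below it in all 3 for 0 members, where 11.4% of all features were higher and 10% lower in all 3 pairs. TIFY10A, counted here and among the members above control, passed the level filter mainly through Br-cGMP libraries. Its place in these counts was therefore partly set by the filter. The ratio of Br-cGMP to control in pairs 1, 2 and 3 was 1.53, 1.23 and 5.43 for TIFY11B, and 1.12, 1.20 and 1.37 for TIFY6B. For TIFY11D it was 1.59, 0.973 and 5.22, with pair 2 just below 1. Averaged over both genotypes, TIFY11B stood at 1.51 ± 0.37 (limma adjusted p = 0.643), TIFY11D at 1.24 ± 0.39 (limma adjusted p = 0.714) and TIFY10A at 0.43 ± 0.22 (limma adjusted p = 0.86). In that average 0% of all features were called by limma and by limma-voom, and 5.76% had an unadjusted p under 0.05. Without the 4 libraries numbered 3 the averages were 0.92 for TIFY11B and 0.51 for TIFY11D.

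The response in pkg was not shown to differ from that in wild type. The pkg response minus the wild type response was -0.86 ± 0.73 for TIFY11B, -1.08 ± 1.09 for TIFY11C and -0.52 ± 0.78 for TIFY11D (limma adjusted p of 1 each, to 3 digits). For all 8 members it lay between -1.08 and 0.22. In this interaction 0 members were called, where 0.00396% of all features were, and 0 members had an unadjusted p under 0.05, where 2.07% of features did. The standard errors leave room for a weaker, an equal or a stronger response in pkg. Without WT Br-cGMP 3 the interaction of TIFY11B was -0.37, that of TIFY11C -0.46 and that of TIFY11D -0.043. Without the 3 libraries low in root genes they were -1.47, -0.78 and -0.89 in the same order of genes, and without the 4 libraries numbered 3 that of TIFY11C was -0.16.

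Genotype itself separated none of the members. With Br-cGMP, pkg minus wild type was -1.08 ± 0.52 for TIFY11B (limma adjusted p = 0.552), from means of 53.2 ± 30.2 FPKM in pkg and 119 ± 78.2 FPKM in wild type. It was -0.87 ± 0.77 for TIFY11C (adjusted p = 0.776), and 0.11 ± 0.22 for TIFY6B (adjusted p = 0.915). Without WT Br-cGMP 3 the values were -0.58 for TIFY11B and -0.25 for TIFY11C, and without pkg Br-cGMP 3 that of TIFY6B was -0.046. Without the 3 libraries low in root genes they were -1.50 for TIFY11B and -1.12 for TIFY11C. Of the 8, 0 were called, where 0.341% of all features were, and in 0 did the groups fail to overlap, where 6.65% of features were higher and 6.65% lower in pkg without overlap. At an unadjusted p under 0.05 in the main limma fit there were 0 members and 9.47% of all features, and limma-voom called 0 members. For TIFY11B the unadjusted p was 0.049 with limma-voom (adjusted p = 0.513). With a replicate block in limma it was 0.0246 (adjusted p = 0.431). Without Br-cGMP, differences ran from -0.38 ± 0.22 for TIFY6A, with means of 142 ± 20.9 FPKM in pkg and 187 ± 45.3 FPKM in wild type, to 0.49 ± 0.55 for TIFY11D, with means of 33.9 ± 15.9 FPKM in pkg and 23.9 ± 11.1 FPKM in wild type. They were -0.19 for TIFY6A without WT control 3 and 0.14 for TIFY11D without pkg control 2. In that comparison too 0 members were called, where 0.341% of all features were, and 0 had separate groups, where 5.27% of features were higher and 5.44% lower. At an unadjusted p under 0.05 there were 0 members and 5.22% of all features, and limma-voom called 0 members. The genotype comparison and the Br-cGMP comparison of a genotype share libraries.

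Single libraries set much of the variation. WT Br-cGMP 3 was the highest of the 12 libraries for 4 of the 8 tested members (TIFY10B, TIFY10C, TIFY11B and TIFY11C) and the highest or second highest for 7 of 8. It was the highest for 7.37% of all features and the highest or second highest for 16.5%. Its 5 root markers summed to 6111 FPKM and its leaf markers to 612 FPKM, the lowest leaf sum of the 12. The part of tissue composition in its TIFY levels was not tested. pkg Br-cGMP 3 was the highest library for TIFY6B and TIFY11D, and its root markers summed to 21.8 FPKM. WT control 3, with a root sum of 21.6 FPKM, was the highest library for TIFY6A and the lowest for TIFY11C and TIFY11D.

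Correlations over the 12 libraries were computed for all 28 pairs of the 8 tested members, on log2(FPKM + 1). Pearson r ranged from -0.13 to 0.85, with a median of 0.48, and 3 pairs were below 0. When deviations from the 4 group means were used, the median was 0.52, so the correlation was present within groups. Pairs of other features were not computed, so whether these r values are particular to the TIFY genes was not tested. The highest was that of TIFY11B with TIFY11D, which lie on different chromosomes: r = 0.85 (permutation p = 0.00051, adjusted over 28 pairs p = 0.0143) and rho = 0.80 (permutation p = 0.00306, adjusted p = 0.0428). It was 0.87 without the 2 libraries farthest from the median, 0.78 without WT Br-cGMP 3, 0.88 over the 9 libraries not low in root genes and 0.89 on deviations from group means. TIFY6B with TIFY10B gave r = 0.82 and rho = 0.83 (permutation p = 0.00105 and 0.00166, adjusted p = 0.0147 and 0.0428), and r = 0.79 without the 2 libraries farthest from the median of TIFY6B. TIFY11C with TIFY11D gave r = 0.79 and rho = 0.76 (permutation p = 0.00286 and 0.00518, adjusted p = 0.0267 and 0.0483), and r = 0.52 without WT Br-cGMP 3 and WT control 3, the 2 farthest from the median of TIFY11C. These 3 pairs had an adjusted p under 0.05 for r. Next came TIFY10A with TIFY11B at r = 0.71, or 0.40 on deviations from group means, where TIFY10A had 2 to 21 recovered reads per library. The neighbours TIFY11B and TIFY11C gave r = 0.70, or 0.49 without WT Br-cGMP 3 and 0.68 on deviations. TIFY10B with TIFY10C gave r = 0.69, or 0.82 on deviations.

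The lowest pair was TIFY6A with TIFY11C, at r = -0.13 (permutation p = 0.694, adjusted over 28 pairs p = 0.778) and rho = 0.03 (permutation p = 0.938, adjusted p = 0.938). Its sign depended on few libraries: r was 0.76 without WT control 3 and pkg control 2, the 2 farthest from the median of TIFY6A, 0.46 over the 9 libraries not low in root genes and -0.49 without WT Br-cGMP 3. Points of one library share its depth, scaling and tissue composition, and the 12 libraries were treated as independent in the permutations.

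**Figure D3:**
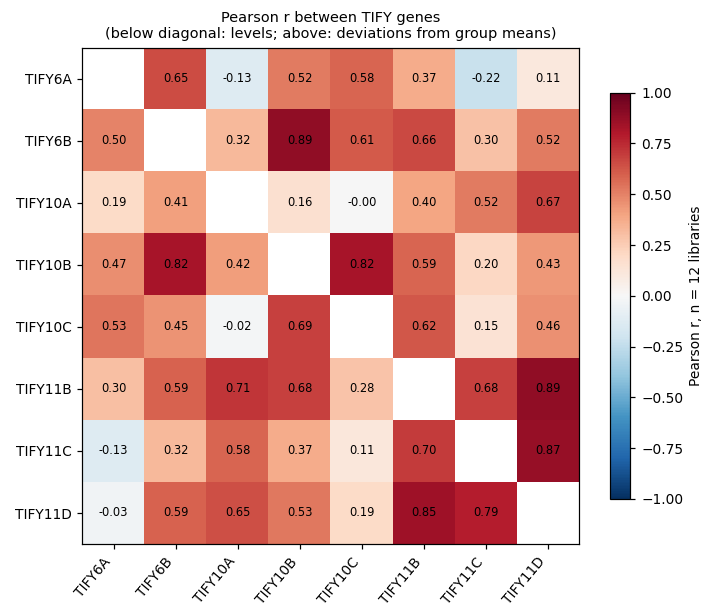
Pearson r over 12 libraries between 8 TIFY genes, for levels below the diagonal and for deviations from group means above it, on a colour scale from -1 to 1. TIFY11B with TIFY11D (0.85 and 0.89) and TIFY6B with TIFY10B (0.82 and 0.89) are the highest pairs, and TIFY6A with TIFY11C (-0.13 and -0.22) the lowest.

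Among 1131 other reference genes with a symbol, BHLH148 followed the mean log2 level of the 8 TIFY genes most closely, at a Pearson r of 0.93 over 12 libraries. BHLH148 is a bHLH transcription factor reported in rice to bind a JAZ protein. It stood at 13.2, 15.2 and 40.5 FPKM in the pkg Br-cGMP libraries, against 8.39, 15.3 and 9.81 FPKM in the pkg control libraries. In wild type it stood at 19.0, 24.2 and 68.0 FPKM with Br-cGMP, against 18.2, 6.14 and 6.34 FPKM in control libraries. As with TIFY11B, wild type groups did not overlap, pkg groups did, and library 3 was the highest of each treated group. The next were JAMYB, a jasmonate-responsive MYB factor (0.87), CHIB3H-H (0.87), TIFY11E (0.86), a further JAZ gene outside the set, HSFA4D, a heat stress factor (0.84), and EL2, an elicitor-responsive gene (0.83). Without WT Br-cGMP 3 these values were 0.87 for BHLH148, 0.84 for JAMYB, 0.69 for CHIB3H-H, 0.69 for TIFY11E, 0.69 for HSFA4D and 0.79 for EL2. TIFY11E lies 37763 bases from TIFY11D on chromosome 10 with 2 reference genes between them, and reached 12.0 FPKM in pkg Br-cGMP 3 and 36.3 FPKM in WT Br-cGMP 3, with the remaining 10 libraries at 1.32 to 7.60 FPKM.

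**Figure D4:**
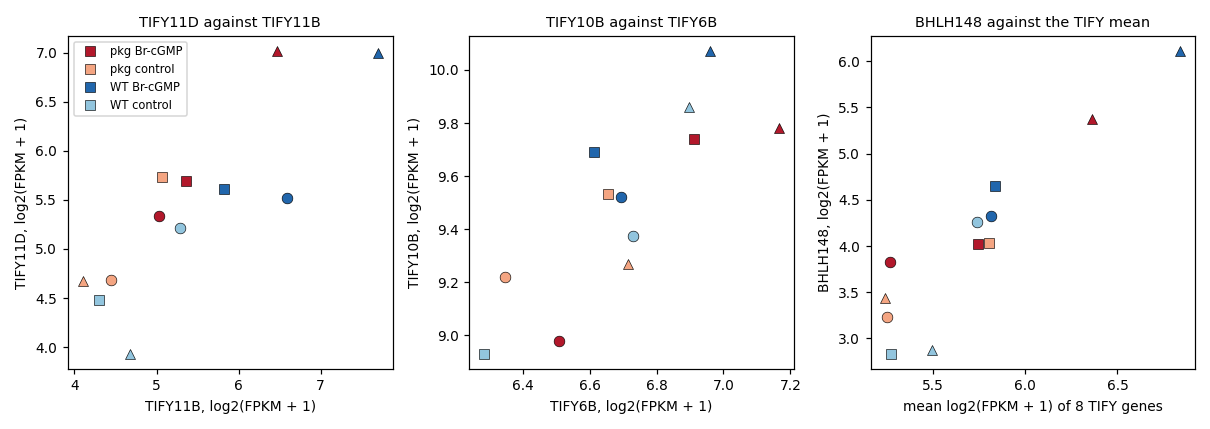
Levels as log2(FPKM + 1) in 12 libraries for TIFY11D against TIFY11B, TIFY10B against TIFY6B, and BHLH148 against the mean of 8 TIFY genes, coloured by group, with circles, squares and triangles for libraries 1, 2 and 3. WT Br-cGMP 3 and pkg Br-cGMP 3 lie at the upper end of the first and last panel, where r is 0.85 and 0.93.

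A list of other jasmonate genes had 34 symbols with a row, of which 22 could be tested. In every library 3 of them were listed at 0. By limma, 0 of the 22 passed the adjusted threshold in each of the 6 comparisons, and by limma-voom 0 as well. At an unadjusted p under 0.05 there were 2 of the 22 in the pkg response (2.71% of all features), 5 in the wild type response (5.33% of all features) and 3 over both genotypes (5.76% of all features). Those of the pkg response went in opposite directions, CYP74A2 at 0.89 and RIXI at -1.10. Those of the wild type response and of both genotypes were above control. The list was put together with earlier results of these data known, so its counts are no independent evidence of a direction. Averaged over both genotypes, 9 of 10 tested synthesis genes lay above control, with a median difference of 0.86, beside 4 of 8 receptor and signalling genes (median -0.01) and 3 of 4 output genes (median 0.76). The synthesis gene below control was AOC, at -0.10 ± 0.21 and 0.354 to 2.01 FPKM. OPR7, at 65.2 to 133 FPKM, had a difference of 0.17 ± 0.21. Synthesis genes were listed by symbol, and the part of each in making jasmonate was not tested. The median of all features was -0.03, with 46.3% of them above control. Synthesis genes had a median of 0.50 in pkg and 1.26 in wild type, and output genes 0.29 in pkg and 1.05 in wild type. For the 22 genes the pkg response minus the wild type response had a median of -0.22, with 0 called and 2 at an unadjusted p under 0.05, where 2.07% of all features were. Those 2 had opposite signs, RIXI at -1.90 and AOC at 0.94. RIXI reached at most 4.26 FPKM and AOC at most 2.01 FPKM. The receptor genes COI1A and COI1B, the adaptor gene NINJA1, the TOPLESS-related gene TPR2 and MYC2, whose product JAZ proteins bind, had differences from -0.13 to 0.28 in either genotype. The other 3 tested genes of that role were BHLH148, at 0.84 in pkg and 1.70 in wild type, BHLH089, at 0.13 in pkg and -0.72 in wild type, and IPK1, at -0.24 in pkg and -0.18 in wild type.

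CYP74A2, for allene oxide synthase, an early enzyme of jasmonate synthesis, had the smallest p of the list for the response over both genotypes. It stood at 81.6, 181 and 138 FPKM in the pkg Br-cGMP libraries, against 42.4, 95.3 and 77.0 FPKM in the pkg control libraries. In wild type it stood at 73.1, 85.2 and 105 FPKM with Br-cGMP, against 35.0, 38.7 and 65.2 FPKM in control libraries. Wild type groups did not overlap and pkg groups did, while within the same-numbered pkg pairs the ratio of Br-cGMP to control was 1.92, 1.89 and 1.79. The difference over both genotypes was 0.92 ± 0.26 (limma adjusted p = 0.643). It was followed by BHLH148 at 1.27 ± 0.41 (limma adjusted p = 0.732), the lipoxygenase gene CM-LOX2 at 1.20 ± 0.52 (limma adjusted p = 0.86) and OPR5, of the oxophytodienoate reductase family, at 1.00 ± 0.46 (limma adjusted p = 0.86). CYP74A2, CM-LOX2 and OPR5 peaked in pkg Br-cGMP 2, at 181, 105 and 19.9 FPKM, a library in which TIFY11B stood at 40.1 FPKM. That library was the highest for 13.8% of all features tested, the largest share of any library. BHLH148 peaked in WT Br-cGMP 3.

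**Figure D5:**
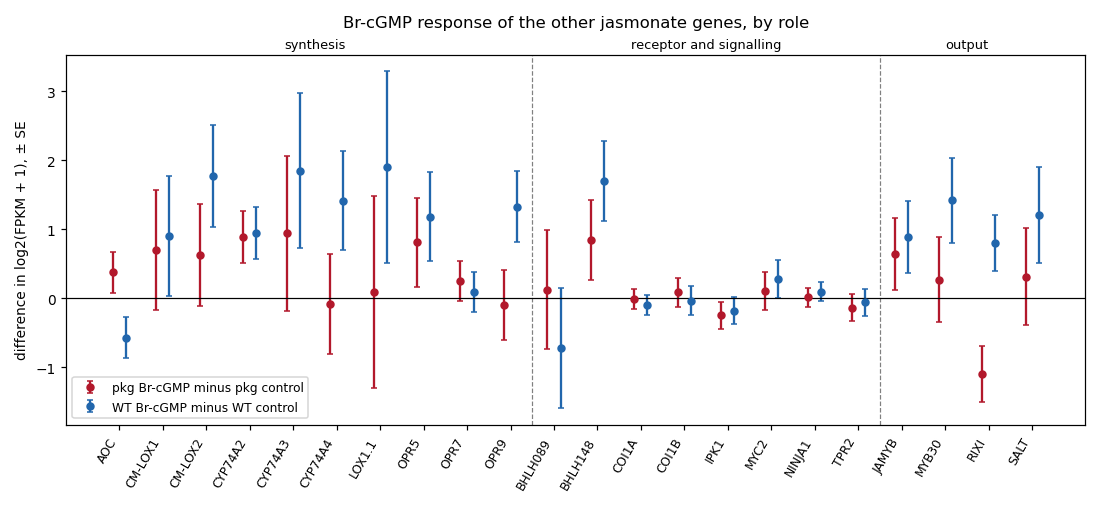
Differences in log2(FPKM + 1) between Br-cGMP and control libraries (± SE) for 22 other jasmonate genes, grouped by role, in pkg (red, left) and in wild type (blue, right). Most synthesis genes lie above 0, with a median of 0.86 over both genotypes, while receptor and signalling genes lie on both sides of 0 (median -0.01), from -0.72 for BHLH089 to 1.70 for BHLH148, both in wild type.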

How the data were processed

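The 12 deposited files hold 1 library each, with no unit stated. The authors' values are FPKM by their structure: in the deposited files, 100% of values above 0, once multiplied by feature length, fell within 0.01 of a whole number of steps, with 1 step size for each library. Reads were recovered from these steps, which also hold a scaling between libraries. The submitters' processing notes name CASAVA 1.8 and HISAT2. The build, the annotation and the program that counted reads are not given in these sources.

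Groups came from the sample titles. limma 3.58.1 in R 4.3.3 was fitted to log2(FPKM + 1) with 1 mean per group over 12 libraries, trended and robust, for features that reached 1 FPKM in 3 libraries or more. The procedure was run on simulated reads whose spread between libraries was set below the observed one, with no libraries low in root genes. That run does not show how well the fit finds changes in these data. Correlation p-values used 100000 resamples. Python 3.11.15, pandas 2.3.3 and matplotlib 3.10.9 were used for the rest. The members, lists and tests were chosen with earlier results of these data known. Named were all members, the highest and lowest pair by r, the 4 jasmonate genes with the smallest p over both genotypes and the 6 genes most like the mean; TIFY11E came in by the last rule, and other pairs, families and jasmonate genes were named after their values were seen. Libraries of a group differed by a chi-square per degree of freedom of 18.4 to 65.9, so none was the same library sequenced again. This cannot tell separate seedlings from separate preparations of the same seedlings. Same-numbered pkg libraries deviated together (r from 0.31 to 0.36 between pkg Br-cGMP and pkg control, all 3 pairs above 0.1), a pairing seen in the data alone. So did pkg control 3 and WT control 3, of different genotypes and both low in root genes (r = 0.41). A p-value here covers only how far these libraries spread. Sequences of the genes were not used here.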

Additional observations from a re-analysis of the deposited data

How the results depend on the processing

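Alternatives covered the pseudocount, filter, features, scaling, moderation, tool, groups in the fit, a replicate block and each library left out; leaving out the 3 libraries low in root genes, or the 4 numbered 3, was chosen after seeing the data. Members called stayed at 0 in all 6 comparisons under every alternative, the replicate block included, which changed no member's call. Equal totals moved the median level by -0.06 to 0.10. Of 1032 recomputed differences, over all 8 members and 6 comparisons, 968 kept their sign. TIFY10A could not be fitted without the libraries numbered 3, where it failed the filter. Reversed were, in wild type, TIFY11C without the 4 libraries (-0.094), and TIFY10C (0.45) and TIFY6A (0.087) without the 3; in pkg, TIFY10B (-0.017) and TIFY11C (-0.25) without the 3 or the 4; over both genotypes, TIFY11C without the 4 (-0.17) and TIFY6A with equal totals (-0.017); in the interaction, TIFY6A (-0.0044) and TIFY6B (-0.040) without the 3; between genotypes without Br-cGMP, TIFY10B (0.22), TIFY10C (0.84) and TIFY11C (-0.34) without the 3 or the 4; and with Br-cGMP, TIFY6B without the 3 (-0.046) and TIFY11D with equal totals (0.033). With single libraries left out, wild type TIFY10C ranged from -0.93 to 0.45, TIFY6A from -0.22 to 0.087 and TIFY6B from -0.057 to 0.25; pkg TIFY10C from -0.81 to 0.17, TIFY11C from -0.39 to 0.80 and TIFY6A from -0.025 to 0.22; over both genotypes TIFY10C from -0.64 to 0.048 and TIFY6A from -0.064 to 0.10; in the interaction TIFY10A from -0.21 to 0.21, TIFY10B from -0.45 to 0.048 and TIFY10C from -0.80 to 0.57; between genotypes without Br-cGMP TIFY10B from -0.28 to 0.19, TIFY10C from -0.49 to 0.45, TIFY11B from -0.48 to 0.053, TIFY11C from -0.48 to 0.74 and TIFY6B from -0.24 to 0.065; and with Br-cGMP TIFY10B from -0.40 to 0.00017, TIFY10C from -0.89 to 0.39, TIFY11D from -0.53 to 0.45 and TIFY6B from -0.046 to 0.28. The median r of the pairs ranged from 0.36 (without WT Br-cGMP 3) to 0.58 (without WT control 3).

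Features called, of all tested, in the wild type response were 0, and 2 with a pseudocount of 0.1, 5 with no filter, 4 without trend and 3 with only the compared groups. Single libraries left out gave 0 to 1 there, 0 to 2 in pkg (0 with all), 0 to 1 over both genotypes (0) and 1 to 3 for the interaction (1). That interaction count was 2 with a pseudocount of 0.1 or no filter, and 0 with reference genes alone, limma-voom, the replicate block or without the 3 libraries. Between genotypes without Br-cGMP 86 were called, and 12 with reference genes alone, 30 with the replicate block, 43 with only the compared groups, 29 without the 3 libraries, 17 without the 4, and 49 to 88 without single ones. With Br-cGMP 86 were called, and 8, 38, 44, 35 and 14 under the same settings, and 51 to 200 without single ones (200 without pkg Br-cGMP 1). The causes were not tested. TIFY10A had 2 to 21 recovered reads per library, and the other tested members had 89 or more (89 for TIFY11C in WT control 3). The part of depth in their differences was not tested.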
